A study of Mus musculus with 2 samples.

Results

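The miR-15 family is a group of microRNAs (miRNAs, short RNAs that guide Argonaute proteins to matching messages) that share the same seed, bases 2 to 8 of the mature strand, which pairs with target messages. The entries were taken by name: every listed strand, from either arm, of miR-15a, miR-15b, miR-16, miR-195, miR-497 and miR-424, and of miR-322, the mouse counterpart of miR-424. This gave 16 of 851 named entries, 11 under human and 5 under mouse names, of which 13 had reads in at least 1 library and 3 had none in either (miR-16-1-3p, miR-497-3p and a mouse-named miR-15b-5p). The libraries came from the mitochondria of mouse hearts, 1 labelled control and 1 labelled STZ, for streptozotocin, which kills the insulin-making cells of the pancreas and is used to make mice diabetic. The sources used here give no strain, sex, age, dose or time after treatment, nor the number of hearts in a library. Levels are in RPM, the reads of a strand scaled to the same total of assigned reads in each library. The control library held 508182 such reads and the STZ library 706860, so that a single read was worth 1.97 and 1.41 RPM. With 1 library per group there was no replicate check and no p-value. Intervals are exact 95% intervals for counting error alone, and "higher" and "lower" compare these 2 libraries, not the conditions.

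These miRNAs slow the cell cycle. miR-15a and miR-16 are known as repressors of the G1 cyclins and of the survival protein BCL2, and their locus inside the noncoding gene DLEU2 is lost in many human chronic lymphocytic leukaemias. In the mouse heart, miR-195 is known to increase as cardiomyocytes leave the cell cycle after birth, and inhibition of the family prolongs their division. miR-322 (miR-424 in human) and its neighbour miR-503 are known from myoblasts, where they promote cell cycle exit by repressing the phosphatase Cdc25A. In rat cardiomyocytes miR-15b was described as a repressor of Arl2, which maintains cellular ATP.

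The guide strands, the arms that carry the family seed, are shown because the whole family is defined by that seed, in capitals here. The sequences are the mouse RefSeq ones on GRCm38.p6. Of 14 distinct mature names in the files, 9 stand in RefSeq under the same name and 5 under the mouse counterpart's name. The files give no sequences.
miR-16-5p: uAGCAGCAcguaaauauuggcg
miR-195a-5p: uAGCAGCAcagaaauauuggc
miR-15b-5p: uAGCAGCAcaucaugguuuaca
miR-15a-5p: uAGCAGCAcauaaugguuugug
miR-497a-5p: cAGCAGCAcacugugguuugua
miR-322-5p: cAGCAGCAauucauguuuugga

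The 6 strands have the same 7-base seed, held by 10 of 1679 mature names in the RefSeq table (0.596%). Beyond it they differ. miR-16-5p and miR-195a-5p were identical at 19 of 21 aligned bases, and miR-15a-5p and miR-15b-5p at 18 of 22. miR-16-5p and miR-497a-5p, the least alike pair of the 6, matched at 11 of 22.

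The hairpins lie at 4 loci, named here on GRCm38, the build of the annotation used, which is not the submitters' build (GRCm39). Mir15a (chr14:61632027-61632110) and Mir16-1 (chr14:61631880-61631972) are on the minus strand in Dleu2, 54 bases apart, Mir15a in an intron and Mir16-1 overlapping an annotated exon. Mir15b (chr3:69009772-69009835) and Mir16-2 (chr3:69009902-69009996), on the plus strand, lie 66 bases apart in an intron of Smc4, which encodes a condensin subunit. Mir497 (chr11:70234717-70234800) and Mir195a (chr11:70235042-70235135) are 241 bases apart on the plus strand, inside no annotated gene other than the miRNAs. Mir322 (chrX:53054255-53054349) is on the minus strand, 200 bases from Mir503 (chrX:53053984-53054054), at the head of a run of X-linked hairpins. The mature miR-16-5p is the same from both of its hairpins, so its reads cannot be divided between chromosomes 3 and 14.

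All 8 family strands with a mean of at least 10 RPM had a lower level in the STZ library, against 51.6% of all named entries above that mean, and 7 of the 8 by less than 2-fold. mmu-miR-322-5p was added to its human-named counterpart hsa-miR-424-5p and is called the summed miR-322-5p here. The 6 guide strands together stood at 9136 RPM in the control (4643 reads) and 6304 RPM in the STZ library (4456 reads). This was an STZ to control ratio of 0.690 (0.662 to 0.719). With the 3p strands added, the family took 1.04% of control reads and 0.708% of STZ reads.

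A single miRNA, hsa-miR-16-5p, supplied most of that pool. It held 76.1% of the guide-strand reads in the control (Wilson 95% interval 74.8 to 77.3) and 74.9% in the STZ library (73.6 to 76.2). Its level was 6950 RPM in the control against 4722 RPM with STZ, a ratio of 0.679 (0.648 to 0.713), and it was the entry of rank 26 and 30 among named entries. The other 5 guide strands together had a ratio of 0.723 (0.665 to 0.787). Relative to miR-16-5p this was 1.06 (0.967 to 1.17), an interval that includes 1. So the lower sum did not rest on miR-16-5p alone.

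miR-195-5p, the member known from the postnatal heart, was the second guide strand, with 1033 RPM in the control against 768 RPM in the STZ library over its human and mouse names, a ratio of 0.744 (0.658 to 0.840). Its cluster mate hsa-miR-497-5p had 84.6 RPM (43 reads) and 58.0 RPM (41 reads), a ratio of 0.685 with an interval (0.436 to 1.08) that includes 1. Reads of miR-195-5p exceeded those of miR-497-5p by 12.2-fold in the control (8.94 to 17.1) and by 13.2-fold in the STZ library (9.63 to 18.7). Their STZ to control ratios differed from each other by a factor of 1.08 (0.678 to 1.74), so no difference within the cluster was detectable at this depth. The whole Mir195a/Mir497 cluster had a ratio of 0.741 (0.660 to 0.833).

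The paralogs miR-15a-5p and miR-15b-5p differed widely in level. hsa-miR-15b-5p, from the Smc4 intron, stood at 724 RPM in the control against 617 RPM after STZ. Its ratio of 0.852 (0.740 to 0.981) was by point value the mildest of the 6 guide strands. Compared with miR-16-5p its ratio was 1.25-fold larger (1.08 to 1.46), an interval above 1. Its reads made up 7.93% of the guide strands in the control (7.18 to 8.74) and 9.78% in the STZ library (8.95 to 10.7).

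hsa-miR-15a-5p, from the Dleu2 locus, had 106.3 RPM (54 reads) and 80.6 RPM (57 reads), a ratio of 0.759 (0.514 to 1.12). Set against the ratio of miR-15b-5p this was 0.891 (0.587 to 1.35), an interval that includes 1. miR-15a-5p was the only strand with reads that is made from the Dleu2 hairpins alone. Reads of miR-16-5p exceeded those of miR-15a-5p by 65.4-fold in the control (50.01 to 87.2) and by 58.6-fold in the STZ library (45.1 to 77.5). Against miR-15b-5p the excess was 9.60-fold (8.62 to 10.7) and 7.66-fold (6.93 to 8.48). Ligation and PCR can differ between sequences, so these ratios between miRNAs are ratios of reads.

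**Figure D1:**
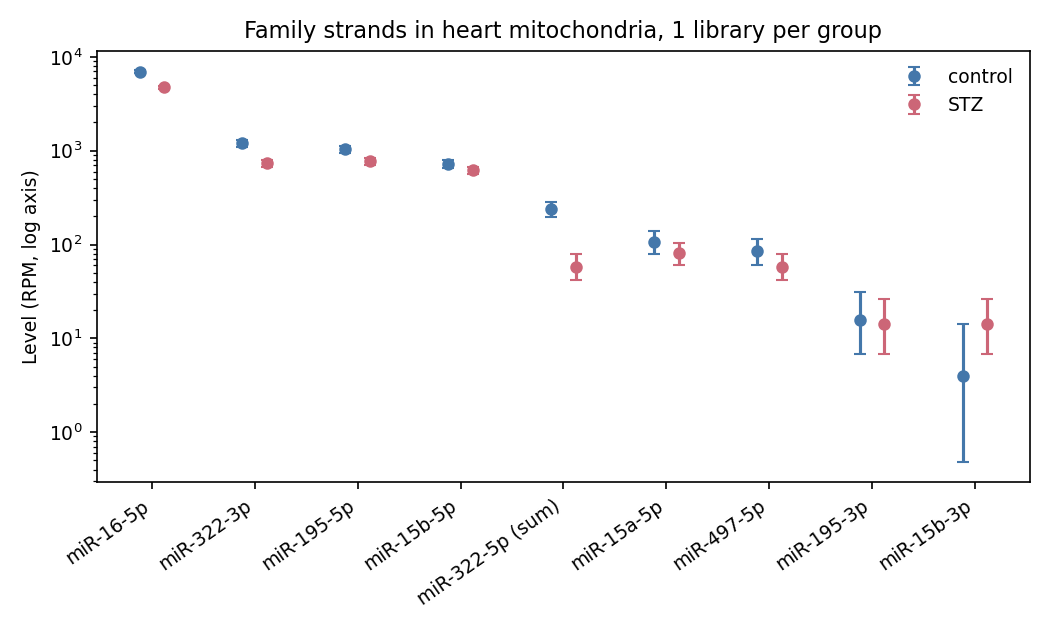
Level in RPM on a log axis of the 9 family strands with reads in both libraries (human and mouse names summed), control and STZ, 1 library each; points are levels and bars exact 95% Poisson intervals. The intervals of miR-16-5p, miR-322-3p, miR-195-5p and the summed miR-322-5p do not overlap between the libraries, and miR-15b-3p (3.94 and 14.1 RPM) is the only one placed higher in the STZ library.

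The order of levels was mostly the same in both libraries. In the control it ran miR-16-5p, miR-322-3p, miR-195-5p, miR-15b-5p, the summed miR-322-5p, miR-15a-5p and miR-497-5p. Neighbours differed beyond counting error except miR-15a-5p over miR-497-5p, where the ratio of 1.26 had an interval of 0.826 to 1.92. In the STZ library miR-195-5p and miR-322-3p could not be separated (1.04, 0.922 to 1.18). The summed miR-322-5p, the fifth in the control, had the same 41 reads as miR-497-5p there and could not be separated from miR-15a-5p above it (1.39, 0.914 to 2.13).

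The summed miR-322-5p departed from the rest of the family. It had 238 RPM in the control (121 reads, interval 198 to 285) and 58.0 RPM in the STZ library (41 reads, 41.6 to 78.7). That is 4.11-fold lower in the STZ library (2.86 to 6.00), a ratio of 0.244. Its share of the guide strands was 2.61% in the control (2.19 to 3.10) and 0.920% in the STZ library (0.679 to 1.25). Against the sum of the other guide strands its ratio was smaller by a factor of 0.347 (0.237 to 0.4997), the interval lying below 1. Much of this difference came from the human-named hsa-miR-424-5p, with a ratio of 0.170 (0.102 to 0.273). The mouse-named mmu-miR-322-5p alone had a ratio of 0.488 (0.257 to 0.905), an interval that includes the ratio of all guide strands (0.690).

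**Figure D2:**
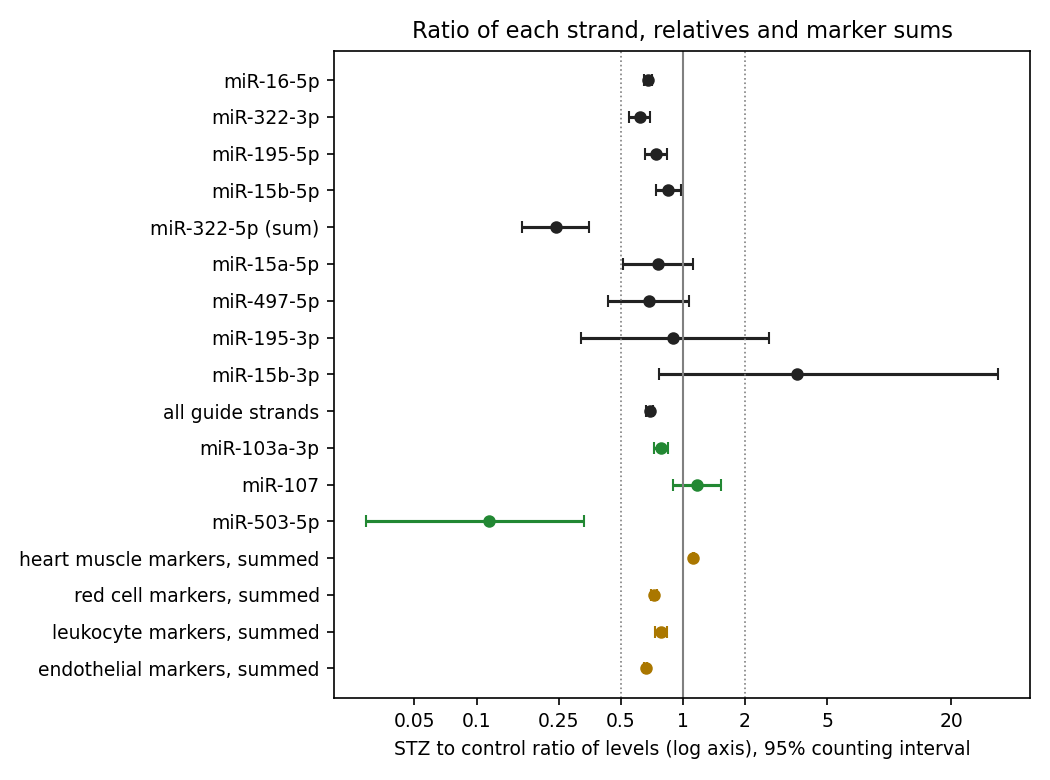
STZ to control ratio of levels on a log axis with exact 95% counting intervals, for family strands (black), relatives with an overlapping seed (green) and marker lists summed (brown); the dotted lines mark 2-fold and the solid line a ratio of 1. The summed miR-322-5p (0.244) and miR-503-5p (0.115) lie left of the other strands, and the heart muscle sum (1.12), of which miR-1-3p makes up 74.6% in the control, lies right of 1.

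The hairpin that makes it is shown because its arms behaved differently. Capitals mark the 5p and 3p mature strands.
Mir322: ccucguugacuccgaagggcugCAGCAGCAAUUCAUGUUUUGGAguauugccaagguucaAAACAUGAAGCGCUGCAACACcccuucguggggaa

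In this hairpin the 3p arm, which does not carry the family seed, was the abundant one. miR-322-3p had 1194 RPM in the control (607 reads) and 737 RPM in the STZ library (521 reads), a ratio of 0.617 (0.548 to 0.695). Its reads exceeded those of the 5p arm by 5.02-fold in the control (4.12 to 6.15) and 12.7-fold in the STZ library (9.24 to 17.9). The 5p arm thus held 16.6% of the reads of the hairpin in the control (14.1 to 19.5) and 7.30% in the STZ library (5.42 to 9.75). The odds ratio of 5p to 3p reads was 0.395 (0.265 to 0.579), a comparison within each library that does not depend on scaling. Each arm reached 20 reads over both libraries for 51 precursors, of which 5 (9.8%) were at least 2-fold shifted toward 3p in the STZ library with an interval excluding 1, and Mir322 was one of them. In either direction 18 of the 51 (35.3%) were shifted that far, so a shift of this size was common between these libraries. Of these, miR-28 left out the mouse-named miR-28a-3p (34 and 47 reads), which was not joined to its human-named 3p entry (49 and 21 reads). Among the 5 shifted toward 3p, miR-181a had 1 and 39 3p reads. This left out miR-181a-2-3p, listed apart, with 31 and 71 human-named and 16 and 15 mouse-named reads. The 3p count of miR-181a was thus incomplete, and its shift with those reads added was not tested.

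That arm difference rested on the reads under the human name. hsa-miR-424-5p had 93 control reads (183 RPM) and 22 STZ reads (31.1 RPM), 5.88-fold lower (3.66 to 9.83). The mouse-named miR-322-5p had 28 reads (55.1 RPM) and 19 reads (26.9 RPM), 2.05-fold lower (1.10 to 3.88). The human name therefore held 76.9% of the 5p reads in the control (68.6 to 83.5) and 53.7% in the STZ library (38.7 to 67.9), and its ratio was smaller than that of the mouse name by a factor of 0.349 (0.156 to 0.790). With the mouse-named 5p entry alone, the odds ratio against miR-322-3p was 0.791 (0.412 to 1.49), which includes 1. Human and mouse sequences were not compared here. The sources used here do not say how reads were divided between the names, and the part of that assignment in the arm difference was not tested.

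**Figure D3:**
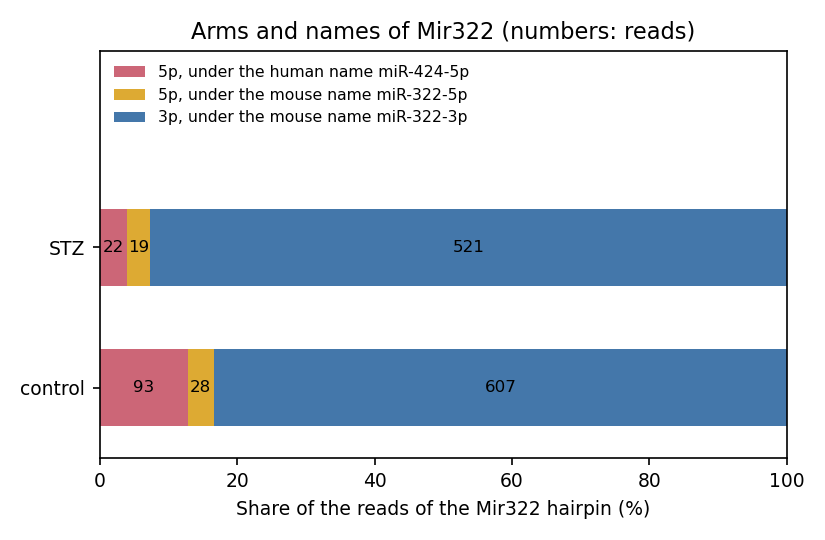
Share in percent of the reads of the Mir322 hairpin by arm and entry name, for the control (bottom) and STZ library (top), with read numbers in the bars. The human-named 5p reads number 93 and 22, the mouse-named 5p reads 28 and 19 and the 3p reads 607 and 521.

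The other hairpins kept nearly all reads on the 5p arm. The Mir195a share was 98.5% of control and 98.2% of STZ reads, with 8 and 10 reads of miR-195-3p. That of Mir15b was 99.5% and 97.8%, with 2 and 10 reads of miR-15b-3p (3.94 and 14.1 RPM), a ratio of 3.59 whose interval (0.766 to 33.7) includes 1. The miR-16-2-3p strand had 0 control reads and 8 STZ reads (11.3 RPM over both names). Against a floor of 3 control reads this is at least 1.92-fold higher, and the exact lower bound was 1.23. Both low 3p strands come from the Smc4 intron and both were placed higher in the STZ library, while the guide strand miR-15b-5p was lower. The Mir15b odds ratio of 5p to 3p reads was 0.237 (0.0251 to 1.12), an interval that includes 1. Its 3p arm was under the minimum of 20 reads, so no arm difference was called. miR-16-1-3p and miR-497-3p had 0 reads in both libraries. By the floor of 3 reads this allows up to 5.90 RPM in the control and 4.24 RPM in the STZ library, and by the exact Poisson interval up to 7.26 and 5.22 RPM.

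Counted by rule, 1 of 8 family strands was at least 2-fold lower and 0 were higher, on the scale of log2(RPM + 1), among strands with a mean of at least 10 RPM (miR-424-5p and miR-322-5p summed). Among all 314 named entries above that level, 18.5% were that much lower and 17.8% that much higher. The count of the family is thus near the background. By contrast, 5 of the 8, all of them lower, had a counting interval below 1 (35% of all named entries). None had an interval above 1 (29.9% of all). The median log2 fold was -0.48 for the family and -0.02 for all 314 entries. The 8 strands are not independent, since they come from shared hairpins and loci, and the entries in the file were scaled to a common total.

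**Figure D4:**
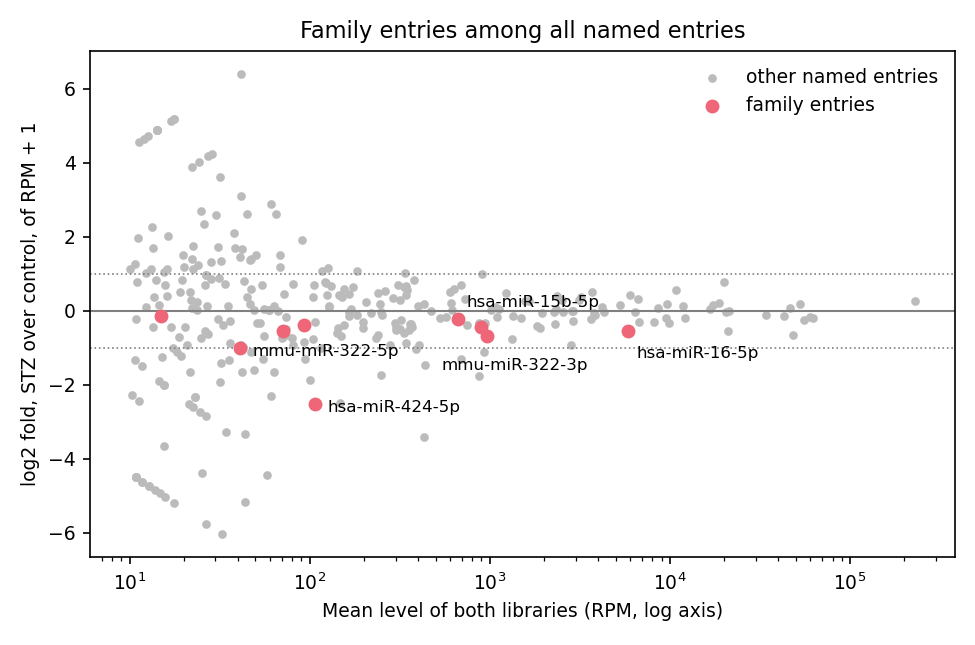
log2 fold of RPM + 1, STZ over control, against the mean level of both libraries (log axis) for the 314 named entries of at least 10 RPM; family entries are red, with human and mouse names apart, and dotted lines mark 2-fold. The family entries all lie below 0, and those under human miR-424-5p (-2.52) and mouse miR-322-5p (-1.01) lie below the lower line.

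The neighbours of Mir322 on chromosome X leaned the same way. The other strands of that run summed to 714 RPM in the control against 473 RPM after STZ, a ratio of 0.661 (0.568 to 0.770), and with Mir322 included the ratio was 0.590 (0.540 to 0.646). miR-503-5p, which carries a seed 1 base different from that of the family, had 25 reads (49.2 RPM) and 4 reads (5.66 RPM), a ratio of 0.115 (0.0291 to 0.333). It too was divided by name: the human-named entry went from 25 reads to 1 and the mouse-named one from 0 to 3. miR-351-5p had 293 and 185 RPM, a ratio of 0.632 (0.496 to 0.805).

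Further along, miR-450b-5p had 13 control reads and 0 STZ reads, at least 6.03-fold lower against the floor of 3 reads, with an exact lower bound of 4.24-fold. miR-542-3p (35 and 30 reads) and miR-450a-1-3p (46 and 43 reads) had ratios of 0.616 and 0.672 with intervals that reached past 1. miR-450a-5p was nearly level, with 167 and 164 RPM and a ratio of 0.981 (0.735 to 1.31). Of 11 listed strands of the run outside Mir322, 10 were detected and 6 had a mean of at least 10 RPM. By the 2-fold rule 2 of the 6 were lower (miR-503-5p and miR-450b-5p) and 0 higher, against 18.5% and 17.8% of the 314 named entries. Their median log2 fold was -0.67. Under 10 RPM on average, miR-351-3p (5 and 0 reads) was lower, with an exact lower bound of 1.27-fold. miR-542-5p (4 and 0 reads) was placed lower, but its exact bound of 0.918-fold reached past 1. miR-450b-3p (1 and 9 reads, ratio 6.47, 0.897 to 284) was placed higher and miR-450a-2-3p had 0 and 1 read. Against the run without Mir322, the ratio of the summed miR-322-5p was smaller (0.368, 0.244 to 0.547). That of miR-322-3p was not separable from the run (0.933, 0.769 to 1.13). The mouse-named miR-322-5p alone was not set against the run.

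**Figure D5:**
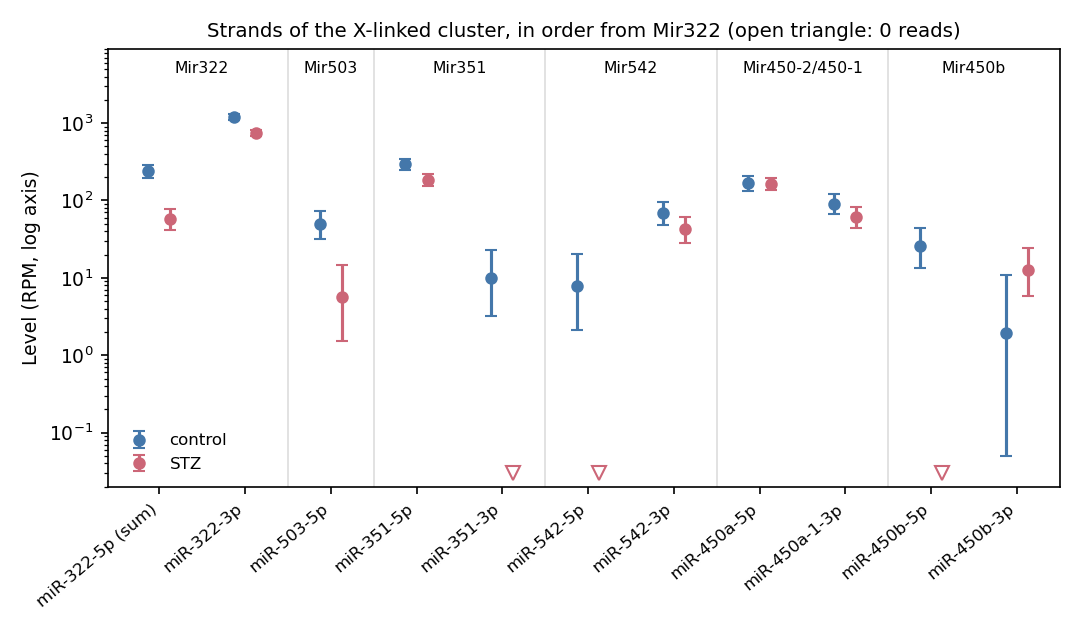
Level in RPM on a log axis of strands of the X-linked run in order from Mir322 (left to right along transcription; miR-503-3p, with no reads, and miR-450a-2-3p, with 1, are left out), control and STZ; bars are exact 95% Poisson intervals and open triangles mark 0 reads. Among strands that lie lower in the STZ library and have reads in both, the largest gaps are at miR-503-5p and the summed miR-322-5p, and miR-450a-5p (167 and 164 RPM) is level.

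A wider group that reaches to miR-107 adds miRNAs whose seeds overlap that of the family by a shift or a single base. The 3 detected of the 5 listed are shown to make that overlap visible, with bases 2 to 8 in capitals.
miR-503-5p: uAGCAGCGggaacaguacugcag
miR-103-3p: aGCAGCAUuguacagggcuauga
miR-107-3p: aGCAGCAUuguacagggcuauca

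miR-103a-3p, a miRNA of intronic origin in pantothenate kinase genes that is known to act on insulin sensitivity, had 2572 RPM in the control against 2017 RPM after STZ, a ratio of 0.784 (0.727 to 0.846). Its near twin miR-107 had 189 and 220.7 RPM, a ratio of 1.17 (0.900 to 1.52). The ratio of miR-16-5p was smaller than that of miR-103a-3p by a factor of 0.866 (0.792 to 0.948). For the growth-associated miR-17-92 group, often set against this family in the cell cycle, 7 of 8 strands had a mean of at least 10 RPM, with 1 higher (17.8% of the 314 named entries), 0 lower (18.5%) and a median log2 fold of -0.33. The strand called higher, miR-18a-5p, had 5 and 15 reads, a ratio of 2.16 with an interval (0.745 to 7.59) that includes 1. miR-19a-3p had 2 and 0 reads.

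The sum of the group had a ratio of 0.911 (0.865 to 0.959), but miR-92a-3p alone, with a ratio of 0.960 (0.906 to 1.02), made up 74.8% of it in the control. The 7 strands without miR-92a-3p had a ratio of 0.764 (0.687 to 0.850), and the ratio of the guide strands set against that was 0.903 (0.805 to 1.01), an interval that includes 1. Ratios were 0.514 for miR-17-5p, 0.653 for miR-20a-5p and 0.759 for miR-93-5p, all with intervals below 1. Those of miR-19b-3p (0.793) and miR-106b-5p (0.907) had intervals that include 1. Without miR-92a-3p the group could thus not be separated from the family.

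Red cells, leukocytes and endothelium also carry miR-16, and the summed markers of each of these cell types were lower in the STZ library, as the family was. Both libraries were labelled cardiac mitochondria, with no whole-heart library or other fraction beside them. Fewer cells of a type, less RNA per cell and a different carry-over of non-mitochondrial RNA thus cannot be told apart. Nor can a level be assigned to mitochondria rather than to such carry-over. The 4 red cell markers (miR-451a, both arms of miR-144 and miR-486-5p) summed to 12940 RPM in the control against 9404 RPM after STZ, a ratio of 0.727 (0.702 to 0.752). All 4 were lower, miR-451a at 0.525, miR-144-3p at 0.539, miR-144-5p at 0.592 and miR-486-5p at 0.812, the interval of miR-144-3p alone including 1. The 4 endothelial markers summed to 67478 and 44500 RPM (0.659, 0.649 to 0.670), and all had intervals below 1, with miR-126-3p at 0.639, miR-126-5p at 0.804, miR-221-3p at 0.790 and miR-222-3p at 0.597.

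The other lists were mixed. The 6 leukocyte markers summed to 3182 and 2484 RPM (0.781, 0.729 to 0.836), and 3 of them had intervals below 1 (miR-150-5p at 0.749, miR-223-3p at 0.692 and miR-342-3p at 0.731). miR-142-3p (0.479), miR-142-5p (1.29) and miR-155-5p (1.16) had intervals that include 1. The 4 heart muscle markers summed to 280496 and 315088 RPM (1.12, 1.12 to 1.13), a sum of which miR-1-3p made up 74.6% (control) and 80.2% (STZ). miR-1-3p (1.21, 1.20 to 1.22) and miR-499-5p (1.07, 1.02 to 1.14) were higher, whereas miR-133a-3p (0.866, 0.854 to 0.879) and miR-208a-3p (0.498, 0.345 to 0.713) were lower, as the family was. Without miR-1-3p the heart muscle sum had a ratio of 0.877 (0.865 to 0.890). All members of these lists were detected and none was at 0 in either library.

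Set against these sums within each library, the ratio of the guide strands was 0.949 (0.900 to 1.00) against the red cell markers, 1.05 (1.00 to 1.09) against the endothelial markers, 0.884 (0.816 to 0.957) against the leukocyte markers and 0.614 (0.589 to 0.640) against the heart muscle markers. Each sum was mostly 1 miRNA, and these values moved when it was left out. They became 1.31 (1.21 to 1.42) against the red cell markers without miR-486-5p, 0.867 (0.818 to 0.919) against the endothelial ones without miR-126-3p, 0.819 (0.724 to 0.926) against the leukocyte ones without miR-150-5p and 0.787 (0.753 to 0.822) against the heart muscle ones without miR-1-3p. Against miR-451a alone, the most red-cell-specific of these, the ratio of miR-16-5p was larger by 1.29-fold (1.19 to 1.41). The summed miR-322-5p was lower against every one of the 4 sums, from 0.217 (0.148 to 0.311) against heart muscle to 0.369 (0.253 to 0.531) against endothelium. Its mouse-named entry alone was not set against these sums. The part of these cells in the family's levels was not tested.

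Of the other named entries with a mean of at least 100 RPM and reads in both libraries, those nearest to miR-16-5p in log2 ratio (-0.56) were miR-24-3p (-0.54), the myeloid miR-223-3p (-0.53) and the mouse-named miR-151-3p (-0.52). The entries were taken as named. The human-named miR-151a-3p, kept apart from the mouse-named entry, had a smaller STZ to control ratio of 0.523 (0.416 to 0.656). Nearest to the summed miR-322-5p (-2.04) were miR-194-5p (-1.77), miR-5100 (-1.75) and miR-215-5p (-2.52), the closest of which differed from it by 0.27. The measure is a single ratio between 2 libraries, so likeness here says no more than that their ratios are close.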

How the data were processed

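Small RNA reads were assigned to listed entries by the authors, who deposited 1 table per library in a normalized unit, a signal that is never negative. From the values, it is RPM, scaled to the assigned reads, and the control file marks a subtotal "TOTAL TPM". Per the labels' protocols, adapters were ligated to both RNA ends and cDNA was amplified by PCR, with no molecular identifiers mentioned. Per the submitters' processing notes the build was GRCm39. The aligner, miRNA reference, trimming and mismatches are not given in the sources used.

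An unnamed subtotal, equal to 96.5% and 96.6% of the total, was left out. The deposited values were whole multiples of 1 read for 100% of entries within 0.001 of a read, and those reads gave all intervals: conditional binomial (Clopper-Pearson) for ratios, Poisson for levels, Wilson for shares and exact conditional intervals for odds ratios. The plan allowed either unit. A strand was called with a 2-fold difference of log2(RPM + 1) at a mean of at least 10 RPM, a scale that understates folds of low entries. A count test needs replicates and was not run. Intervals are not adjusted for the number of comparisons. Ratios of single strands, arms and all values of the related and marker lists, their counts of calls included, sum human and mouse names. Names were joined where they were alike without the species prefix, or by a list of counterparts that covered the family and these lists. Mouse miR-28a and miR-151 were not on it, so the arms of miR-28 and miR-151a hold human-named reads alone. Strands numbered by hairpin, such as miR-181a-2-3p, were not joined to the arms of the unnumbered name. Entries nearest in ratio are as named. Counts of calls over the family join only miR-424-5p with miR-322-5p, and those over all named entries join none. Named were all family entries, the members of the related lists with reads, the markers and the 3 entries nearest in ratio to miR-16-5p and to the summed miR-322-5p. The members and lists were chosen with earlier results of these data known. Alternatives changed the scaling, with TMM (edgeR 4.0.16) and the median of ratios (DESeq2 1.42.0), the minimum level, fold, pseudocount, names and arm minimum. Calculations used R 4.3.3 and Python 3.11.15 with scipy 1.17.1, numpy 2.4.6, pandas 2.3.3 and, for figures, matplotlib 3.10.9. The intervals and the 2-fold rule were tested on simulated Poisson reads. Those reads hold no variation between hearts or libraries, so the test covers the counting step alone.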

Additional observations from a re-analysis of the deposited data

How the results depend on the processing

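No paired analysis was possible because there was 1 library a group, and none could be left out. Of 59 alternative values, 49 were kept. Among these, counts of calls were unchanged, and ratios past 2-fold stayed past it in the same direction. Other values stayed within their counting interval. The 49 include all 18 ratios of single strands under the 3 scalings. The scalings moved log2 ratios by 0.03 (TMM), 0.01 (median of ratios) and -0.01 (without the 10 most abundant entries). Under TMM the interval of miR-15b-5p reached 1.00, so that 4 of 8 strands had an interval below 1. With no minimum level 3 strands were higher (miR-15b-3p and both names of miR-16-2-3p), and at 1.5-fold 2 strands were lower, miR-322-3p being added. Without miR-16-5p the guide-strand ratio was 0.723, in the same direction but outside the counting interval of the full sum (0.662 to 0.719). With arms as named 0 family precursors differed, and the Mir322 odds ratio was 0.791, because the human-named 5p reads then drop out. The ratio of the summed miR-322-5p ran from 0.170 under the human name to 0.488 under the mouse name. The latter was counted as kept because it stayed past 2-fold, although it lies outside the counting interval of the sum (0.167 to 0.350). Leaving out the most abundant member of a list, an alternative chosen after seeing the data, turned the heart muscle sum from 1.12 to 0.877 and moved the ratios of the other 4 list sums, to 0.764 (miR-17-92 group), 0.527 (red cell), 0.842 (leukocyte) and 0.796 (endothelial). Strands under 10 RPM rest on 10 or fewer reads in each library.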
